A study of Mus musculus with 32 samples.

Results

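This report describes how lipopolysaccharide (LPS) changed the RNA of BV-2 cells that carried a miR-146a-5p mimic. BV-2 cells descend from mouse microglia, the macrophages that live in the brain, and grow without end in culture, without the other cells of the tissue. The sample labels list the line as a glioblastoma with wild-type genotype. The comparison takes the 4 libraries of cells given LPS at 10 ng/ml for 24 h and the 4 libraries of cells given vehicle, so it uses 8 of the 32 libraries of the series. Both arms carried the mimic, a synthetic RNA duplex taken up by the cell as if it were the mature microRNA, and the effect of the mimic itself is therefore not measured by this comparison. The 4 LPS and 4 vehicle libraries of cells with a scramble mimic, a control without a natural target set, served for 1 side-by-side comparison. The labels place LPS before transfection and the study's methods place it after, and the contrast is computed in the same way for either order. The study describes its replicates as independent experiments.

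LPS from the outer membrane of Gram-negative bacteria is passed by CD14 to the receptor TLR4. The receptor signals along a pair of routes. The adaptor MyD88 recruits the kinases IRAK4, IRAK1 and IRAK2 and the ubiquitin ligase TRAF6, which lead to NF-kappa-B, while the adaptor TRIF leads to IRF3, interferon beta and, through it, to the interferon-stimulated genes. miR-146a is itself induced by NF-kappa-B and is known as a brake on this pathway, because Irak1 and Traf6 are its best-known targets.

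A microRNA finds its targets mainly through its seed, bases 2 to 8 counted from the 5′ end. The mature sequence is shown because it is the molecule that every library here received, with the seed in capitals (RefSeq, 22 bases, gene on chromosome 11, 43374435 to 43374456, minus strand, GRCm38.p6).
mmu-miR-146a-5p: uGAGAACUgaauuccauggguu
The DNA letters that pair with all of the seed are AGTTCTC. They occur in the longest annotated 3′ UTR of 1463 of 10639 tested genes (13.75%), and in 8 of 15 tested genes of a list of reported miR-146a targets. The sites of the TLR4 kinases, the ligase and Notch1 are given with 13 bases upstream of the match and 6 downstream, the match in capitals (GRCm38, GENCODE transcripts). They show how many places for this microRNA each of the transcripts discussed further on contains.
Irak1 site 1, X:74015388-74015413, minus strand: actcagaggtcaaAGTTCTCatgctt
Irak1 site 2, X:74015372-74015397, minus strand: tctcatgcttggaAGTTCTCatagtg
Traf6 site 1, 2:101697946-101697971, plus strand: cgctctggtgttgAGTTCTCatttag
Traf6 site 2, 2:101698010-101698035, plus strand: cctggaaggcttaAGTTCTCaagtac
Traf6 site 3, 2:101698822-101698847, plus strand: tactttggagtctAGTTCTCagggag
Traf6 site 4, 2:101701346-101701371, plus strand: actttgctactgcAGTTCTCaaacat
Irak2 site 1, 6:113694120-113694145, plus strand: ccccaaacctcttAGTTCTCcacaac
Irak2 site 2, 6:113694253-113694278, plus strand: cggtgtctccgcaAGTTCTCaagttc
Notch1 site 1, 2:26459258-26459283, minus strand: aagaaaataaactAGTTCTCagagcc
A match of letters is a description and does not show that a site is used.

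The 8 libraries held 1686457 to 10018653 counts. The LPS libraries held 3652489 to 10018653 counts and the vehicle libraries 1686457 to 9759131 counts. Vehicle replicate 1 was the shallowest, with 3 counts worth 1.78 CPM (counts scaled to a common library total), against 0.299 CPM in LPS replicate 3. Small structural RNA genes took 2.639 to 5.78% of the counts under LPS and 3.794 to 7.26% under vehicle. Genes of the mitochondrial genome took 1.187 to 3.252% and 2.501 to 4.762%. In a principal component analysis of 12241 genes the first component (34.16% of the variance) separated the LPS libraries, at -63.85 to -11.64, from the vehicle libraries, at 12.34 to 46.5. On the second component (20.36%) LPS replicate 4 (41.24) and vehicle replicate 2 (46.21) stood apart from the other 6 libraries (-23.5 to -3.195). Of 20 microglia and macrophage markers, 18 reached 1 CPM of the library total in at least 4 libraries. The exceptions were Cx3cr1 and C1qa. The summed level of the 20 markers was 7352 to 8694 CPM under LPS and 7524 to 9327 CPM under vehicle. The neutrophil markers S100a8, S100a9 and Ly6g had 0 counts in all 8 libraries, the markers of neurons, astrocytes, fibroblasts and B cells summed to at most 2.464 CPM, those of T cells to 6.944 CPM and those of oligodendrocytes to 7.586 CPM. Of the endothelial markers, Flt1 alone was abundant, at 165 to 310.2 CPM, and the other endothelial markers stayed at or below 1.497 CPM. In bulk RNA, fewer cells of a state and less RNA per cell cannot be told apart.

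More genes rose than fell under LPS in miR-146a cells. Of 12241 genes tested, 546 (4.46%) passed an adjusted p of 0.05 with an absolute log2 fold change above 0.3 in limma-voom, 350 higher (2.86%) and 196 lower (1.6%) under LPS. With replicate number as a block 838 genes passed, 498 of the 546 among them. Of the 546 genes, 499 had LPS and vehicle values that did not overlap and 47 had values that did. Over all tested genes, 758 (6.19%) lay entirely higher under LPS and 634 (5.18%) entirely lower. The genes that rose included more large changes than those that fell, since 221 rose at least 2-fold and 76 fell at least 2-fold. Protein-coding genes made up 502 of the calls. Of 102 small structural RNA genes tested, 13 were called and all 13 were lower under LPS. The structural share of the library totals given above overlapped between the groups, and its part in these 13 calls was not tested. The median log2 fold change of all genes was -0.02. The shares of 2.86% called higher and 1.6% called lower are the background for each count of list members given below. Levels below are CPM after TMM scaling and fold changes are log2 of LPS over vehicle.

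**Figure D1:**
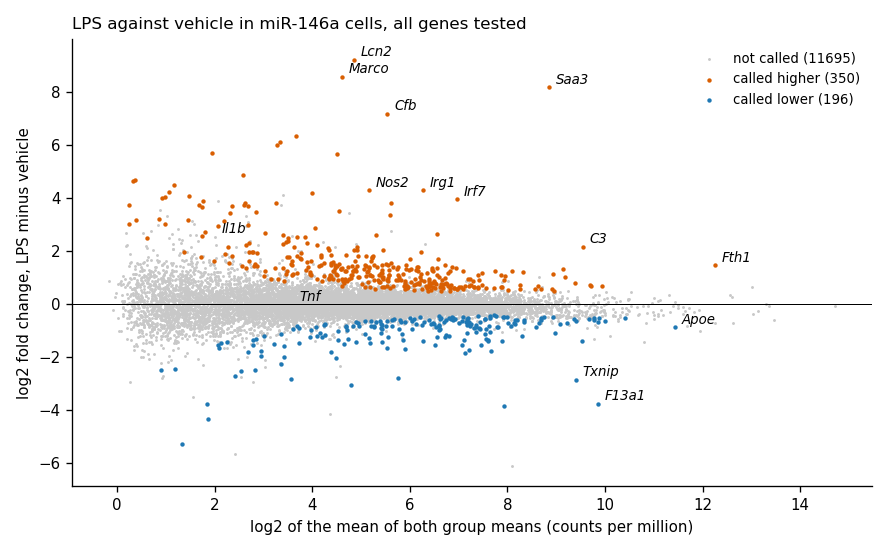
Log2 fold change under LPS (vertical axis) against the log2 of the mean of both group means in CPM (horizontal axis) for the 12241 genes tested, with the 350 genes called higher and the 196 called lower in colour. The largest rises belong to genes that were near absent in vehicle cells, such as Saa3, Lcn2 and Marco, of which the fitted values of Lcn2 and Marco depend on the prior count, while F13a1 and Txnip are among the falls.

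Genes for secreted acute-phase and antimicrobial proteins gave some of the largest rises. Saa3, an acute-phase serum amyloid A protein made by macrophages, stood at 1175, 727, 1022 and 755 CPM in LPS replicates 1 to 4 and at 3.11, 5.18, 3.24 and 1.73 CPM in vehicle replicates 1 to 4. The lowest LPS library lay far above the highest vehicle library, and the fitted log2 fold change was 8.16 (SE 0.41, adjusted p = 2.79e-07). Lcn2, lipocalin-2, which starves bacteria of iron by binding their siderophores, stood at 69.9, 48.5, 68.9 and 43.2 CPM under LPS and had 0 counts in all 4 vehicle libraries. Against a floor of 3 counts over the vehicle group it was at least 489-fold higher (adjusted p = 4.17e-05). Cfb, complement factor B of the alternative complement pathway, stood at 84.8, 114, 90.2 and 79 CPM against 0.621, 2.98, 0.324 and 0.144 CPM (log2 fold change 7.17, SE 0.68, adjusted p = 9.74e-05). Its vehicle values rest on few counts and spread over a wide range, and the groups did not overlap. C3, the central complement protein, was already expressed at 383, 316, 276 and 173 CPM in vehicle cells and reached 1125, 1431, 1272 and 1030 CPM (2.15, SE 0.21, adjusted p = 0.00013). Hp, haptoglobin, which binds free haemoglobin, rose as well (4.17, SE 0.77, adjusted p = 0.00698), with 14.5 to 43.5 CPM under LPS and 0.576 to 5.18 CPM under vehicle. Of 11 tested genes of this list, 7 rose and 0 fell, against 2.86% and 1.6% of all genes, and the list's median log2 fold change was 2.15 against -0.02 over all genes. The remaining called members were Serpina3g, a serine protease inhibitor (2.71, SE 0.51), and Cp, the copper-carrying ferroxidase ceruloplasmin.

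**Figure D2:**
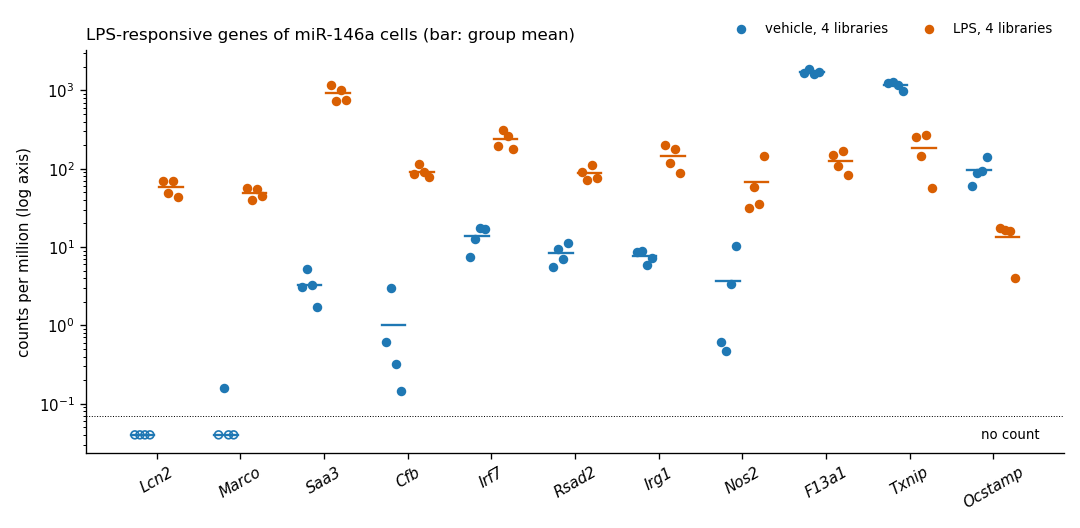
Levels of LPS-responsive genes in the 8 libraries of miR-146a cells, in CPM on a log axis, 1 point per library and a bar at the group mean, with open circles below the dotted line for libraries with no count. For Saa3 the LPS points lie between 727 and 1175 CPM and the vehicle points between 1.73 and 5.18 CPM, and for F13a1 and Txnip the order of the groups is the opposite.

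Receptors that bind microbes and dying cells moved in both directions. Marco, a scavenger receptor for bacteria, stood at 56.7, 39.5, 54.4 and 44.9 CPM under LPS, while the vehicle group held 1 count in all, in replicate 2. The ratio of the groups was 1206 with a counting interval of 216.1 to 47660 (adjusted p = 3.49e-05). Axl, a receptor tyrosine kinase that recognises apoptotic cells through bridging ligands, stood at 17.1, 26, 18.1 and 11.4 CPM against 3.11, 3.61, 2.92 and 2.59 CPM (2.59, SE 0.37, adjusted p = 0.00153). Clec4e, the glycolipid receptor Mincle, stood at 72.7, 67.6, 62.4 and 76.2 CPM against 16.8, 23.5, 10.6 and 22.4 CPM (2.01, SE 0.23, adjusted p = 0.000445). In the opposite direction, Itgax, the integrin CD11c, fell from 261, 307, 229 and 330.2 CPM under vehicle to 104, 128, 92.7 and 102 CPM under LPS (-1.403, SE 0.15, adjusted p = 0.000293). Mrc1, the mannose receptor, fell from 460, 335, 357 and 234 CPM to 143, 119.5, 132 and 113 CPM (-1.39, SE 0.18, adjusted p = 0.000819). Cd93, a receptor linked to clearance of apoptotic cells, fell from a mean of 21.9 ± 3.75 CPM (SD, n = 4) to 9.30 ± 0.422 CPM (-1.26, SE 0.20). Of 30 tested receptors of this list, 7 rose and 7 fell, against 2.86% and 1.6% of all genes, and the median was 0.06. The inhibitory Fc receptor Fcgr2b was among those that fell (-0.54, SE 0.11, adjusted p = 0.0108).

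Enzymes that make nitric oxide and itaconate rose. Nos2, inducible nitric oxide synthase, stood at 31.5, 58.1, 35.1 and 145.8 CPM in LPS replicates 1 to 4 and at 0.621, 0.471, 3.35 and 10.4 CPM in vehicle replicates 1 to 4 (log2 fold change 4.29, SE 1.00, adjusted p = 0.0289). Replicate 4 was the highest of its group in both arms, and the call depended on single libraries, with an adjusted p of up to 0.112 when LPS replicate 2 or vehicle replicate 2, 3 or 4 was left out. Irg1, the enzyme that makes the antimicrobial metabolite itaconate, stood at 202, 119.6, 176 and 87 CPM against 8.7, 8.79, 5.84 and 7.2 CPM (4.29, SE 0.38, adjusted p = 5.04e-05). Ass1 and Asl, which rebuild arginine from citrulline, passed the test with smaller values (0.82, SE 0.20, and 0.68, SE 0.17). Slc7a2, a transporter that brings arginine into the cell, fell (-0.79, SE 0.16). In the whole list of 10 tested genes 4 rose and 2 fell, Slc7a2 and Arg1, the latter described with the alternative activation genes. The count of 4 was 1 without LPS replicate 2 or vehicle replicate 2 or 4 and 2 without LPS replicate 1 or vehicle replicate 1 or 3, and 1 gene fell without LPS replicate 3 or vehicle replicate 2. The calls of Ass1, Asl and Slc7a2 were lost in 6, 7 and 2 of the 8 fits that leave out 1 library, with adjusted p up to 0.107, 0.119 and 0.0592.

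Genes linked to alternative activation of macrophages, the state driven by interleukin-4, went down where they changed. F13a1, the A subunit of coagulation factor XIII, fell from 1655, 1902, 1597 and 1701 CPM in vehicle replicates 1 to 4 to 149, 108, 168 and 83.9 CPM in LPS replicates 1 to 4 (-3.77, SE 0.19, adjusted p = 2.79e-07). This was 13.7-fold, with a spread inside each group far below the distance between them. Sepp1, the plasma selenium carrier, fell from 1084, 856, 1386 and 924 CPM to 469, 264, 538 and 372 CPM (-1.39, SE 0.21, adjusted p = 0.00216). Mgl2, a galactose-binding lectin receptor (-1.33, SE 0.23), and Gatm, an enzyme of creatine synthesis (-0.94, SE 0.13), fell along with Mrc1. Arg1, also a member of the arginine list, stood at 676, 500, 293 and 355 CPM in vehicle replicates 1 to 4. Under LPS it stood at 38.9, 35.4, 18.2 and 35 CPM (-3.84, SE 0.29, adjusted p = 1.925e-05), and it kept the call in each of the 8 fits without 1 library. Together 6 of 16 tested genes fell and 0 rose, against 1.6% and 2.86% of all genes, with a list median of -0.58. With the replicate block 8 fell and 1 rose. The list still held 6 or 7 falling genes when LPS replicate 4 or vehicle replicate 1, 2 or 3 was left out. In the fibrin system, Procr, the endothelial protein C receptor, rose (3.14, SE 0.58, adjusted p = 0.00766; 3.5 to 5.99 CPM against 0 to 0.863 CPM), while Plau, the urokinase plasminogen activator (-1.22, SE 0.31), and its receptor Plaur (-0.75, SE 0.17) fell with F13a1. Of 15 tested genes of that list 1 rose and 3 fell. Plau and Plaur each lost the call in 5 of the 8 fits without 1 library (adjusted p up to 0.124 and 0.0864), and Procr lost it without vehicle replicate 3 (0.0682).

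Interferon-stimulated genes rose as a group. Of 37 tested members of the type I list 31 rose and 0 fell, against 2.86% and 1.6% of all genes, and the median log2 fold change was 1.49. Values of Ifit3, Ifit3b, Ifitm3 and Mx1 could not be read with certainty and were left out. Irf7, the transcription factor that amplifies interferon production, stood at 195, 309, 264 and 176 CPM under LPS and 7.46, 12.7, 17.4 and 17.1 CPM under vehicle (3.95, SE 0.27, adjusted p = 7.42e-06). Rsad2, the antiviral enzyme viperin, stood at 90.4, 72.4, 113 and 77 CPM against 5.59, 9.57, 7.13 and 11.2 CPM (3.33, SE 0.26, adjusted p = 2.6e-05). Oasl2, of the 2′-5′ oligoadenylate synthetase family, stood at 75.2, 97.3, 125 and 70.2 CPM against 6.84, 4.39, 6.7 and 9.07 CPM (3.78, SE 0.32, adjusted p = 4.17e-05). In all of these genes the lowest LPS library lay far above the highest vehicle library. Rtp4, a chaperone-like protein induced by interferon (3.80, SE 0.56), and Cmpk2, a mitochondrial nucleotide kinase (3.71, SE 0.76), rose from levels of 0.432 to 1.73 and 0 to 1.19 CPM. Cmpk2 lost the call without vehicle replicate 1 (adjusted p = 0.0573). The count of 31 genes was 22 to 33 in the fits that left out 1 library, lowest without vehicle replicate 3.

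Nucleic acid sensors are a list that overlaps the type I list. Of 20 tested sensors 8 rose and 0 fell, against 2.86% and 1.6% of all genes, while 3 fell with the replicate block. Of the 8, 7 are also among the 31 genes above, with Ifi203 the other one. They include Dhx58 (1.57, SE 0.20) and Ifih1 (0.90, SE 0.16), cytosolic helicases that bind viral RNA, Oas1a (2.64-fold) and Ifi204, a DNA-binding interferon-inducible protein (1.25, SE 0.14). Zbp1, a sensor of Z-form nucleic acids (3.15, SE 0.72), and Ddx58, the RNA helicase RIG-I (1.49, SE 0.37), were called and lost the call in 6 and 7 of the 8 fits without 1 library, with adjusted p up to 0.163 and 0.13. The count of 8 sensors fell to 4 without LPS replicate 2, LPS replicate 3 or vehicle replicate 1 and to 5 without LPS replicate 1 or vehicle replicate 3 or 4. Guanylate-binding proteins and immunity-related GTPases attack vacuoles that hold microbes. Gbp2 stood at 25.3, 57.7, 38.6 and 55.7 CPM under LPS against 2.49, 0.157, 1.08 and 0.72 CPM (5.66, SE 0.83, adjusted p = 0.00171). Of 9 tested members 3 rose, Gbp2, Gbp9 (2.24, SE 0.34) and Irgm1 (1.29, SE 0.20), and the remaining 6 had fold changes above 0 that did not pass. The count of 3 was 5 without vehicle replicate 2 and 5 in DESeq2. One of the 2 genes that the annotation names Gbp6 rose as well (6.08, SE 0.71, 18.5 to 23.5 CPM under LPS and 0 to 1.28 CPM under vehicle). These proteins belong to a family of close copies, so reads may be divided among its members. Ly6a, the surface protein Sca-1, rose from 0 to 1.24 CPM to 20.8 to 34 CPM (6.31, SE 0.79, adjusted p = 0.000709).

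Presentation on MHC class I, which shows peptides of the cell's own proteins to CD8 T cells, moved modestly and class II did not pass. Of 23 tested class I genes 7 rose and 0 fell, against 2.86% and 1.6% of all genes, with a median of 0.37. Tap1, a subunit of the peptide transporter, stood at 127, 181, 161 and 139 CPM against 59, 69.7, 71 and 69.3 CPM (1.14, SE 0.14, adjusted p = 0.000736). H2-K1, a classical class I heavy chain, rose from 429.9 to 577 CPM to 774 to 947 CPM (0.77, SE 0.13, adjusted p = 0.00397). The non-classical H2-T23 (1.25, SE 0.15), H2-T22 (1.07, SE 0.15) and H2-Q7 (1.53, SE 0.26) rose too, but class I genes are near copies of each other and the reads may be shared among them. Of 6 tested class II genes, which present peptides from engulfed material to CD4 T cells, 0 were called. edgeR and DESeq2 also called 0 of these 6, and 1 had an unadjusted p under 0.05.

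Promoters of the interferon-stimulated genes were searched for the interferon-stimulated response element, spelled GAAA, any 2 bases, GAAA, on both strands, because these genes moved together. Windows ran from 250 bases before to 50 bases after the RefSeq start (300 bases, GRCm38.p6). The letters occurred in 3.44% of 32851 promoters, in 3.14% of those of tested genes, in 12.7% of 330 promoters of genes called higher, in 2.13% of 188 of genes called lower and in 14 of 36 (38.9%) of those of the type I list. Some genes had several promoters and others none. By gene the shares were 3.82% of 8464 tested, 15.2% of 250 called higher, 3.01% of 133 called lower and 13 of 27 of the type I list. Matches of 5 genes that rose are shown with 10 bases on each side, the match in capitals. Isg15 and Ifit1 were added for their matches after their values were seen.
Gbp2, 3:142620594-142620623, plus strand: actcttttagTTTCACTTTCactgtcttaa
Rsad2, 12:26456553-26456582, minus strand: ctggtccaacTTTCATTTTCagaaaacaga
Isg15, 4:156200877-156200906, minus strand: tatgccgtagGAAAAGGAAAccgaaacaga
Ifit1, 19:34640775-34640804, plus strand: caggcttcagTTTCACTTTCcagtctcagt
Saa3, 7:46715782-46715811, minus strand: gttatcttctGAAAGAGAAAttatgggtaa
Capitals that read TTTC are matches on the other strand. Isg15 holds 3 overlapping matches, of which the first is shown. A kappa-B motif spelled GGGA, any base, TTTCC was rare, in 0.411% of all promoters and in 4 of the 330 promoters of genes called higher. No factor was measured at these promoters.

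In the receptor complex Cd14 was the call. Of 20 tested genes of the TLR4 complex and its adaptors 1 rose, Cd14, and 0 fell, a share near the 2.86% called higher over all genes, with a median of 0.14. The count of 1 was 3 in DESeq2 and 2 with the replicate block and in 1 fit of all 32 libraries. It was 0 without LPS replicate 3 or vehicle replicate 1, 2 or 3. Cd14, the co-receptor that hands LPS to TLR4, stood at 55, 54.2, 67.7 and 71.6 CPM under LPS and 16.8, 31.4, 31.4 and 47.5 CPM under vehicle (0.87, SE 0.21, adjusted p = 0.036). It lost the call in 5 of the 8 fits without 1 library (adjusted p up to 0.13). Tlr4 overlapped between the groups, with 58.8 to 76.4 CPM under LPS and 66.3 to 98.8 CPM under vehicle (-0.18, SE 0.15, adjusted p = 0.588). Among 21 tested NF-kappa-B factors and inhibitors 3 rose, Tnfaip3, Bcl3 and Tnip1, and 0 fell, against 2.86% and 1.6% of all genes. The count of 3 was 1 without vehicle replicate 2 or 3, and 1 gene fell with the replicate block and in 1 fit of all 32 libraries. Tnfaip3, the ubiquitin-editing inhibitor A20, stood at 110, 114, 110 and 94.9 CPM against 60.9, 44.1, 62.1 and 75 CPM (0.86, SE 0.16, adjusted p = 0.00889). Bcl3, an atypical I-kappa-B protein, rose by 1.95 (SE 0.43) and lost the call without vehicle replicate 2 or 3 (adjusted p up to 0.0722). Tnip1, a partner of A20, was called with 0.65 (SE 0.16) and lost the call in 5 of the 8 fits without 1 library (up to 0.136). Nfkbia, the classical I-kappa-B alpha, overlapped between the groups (-0.19, SE 0.20, adjusted p = 0.675).

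Most reported targets of miR-146a were not called. Irak1, with 2 seed matches, stood at 78.2, 88.4, 79.9 and 79.3 CPM under LPS and at 95.1, 100.2, 91.2 and 102 CPM under vehicle. The groups did not overlap, but the difference was small and did not pass (-0.25, SE 0.12, adjusted p = 0.277). Traf6, with 4 seed matches, stood at 60.6, 89.6, 57.1 and 93.5 CPM against 49.7, 45.8, 48.1 and 56 CPM. These groups did not overlap either, and the difference again did not pass (0.53, SE 0.19, adjusted p = 0.144). Irak2, with 2 matches, gave 0.17 (SE 0.14, adjusted p = 0.575). Of 15 tested genes of the list 3 rose, Kif22 and Notch1 among them, and 1 fell, Camk2a, against 2.86% and 1.6% of all genes. The list had 0 lower calls in edgeR, in limma-trend and with the replicate block. Notch1, a receptor of cell-contact signalling with 1 seed match, stood at 47, 51.4, 44.7 and 51.2 CPM against 23.6, 18, 22.5 and 21.9 CPM (1.19, SE 0.16, adjusted p = 0.000826). Kif22, a chromosome-arm kinesin of mitosis, rose by 1.76 (SE 0.25, adjusted p = 0.00149). Camk2a, a calcium-dependent kinase, overlapped between the groups (-0.64, SE 0.17, adjusted p = 0.0477) and lost the call in 6 of the 8 fits without 1 library. All 8 libraries carried the mimic, so these values describe LPS in its presence.

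**Figure D3:**
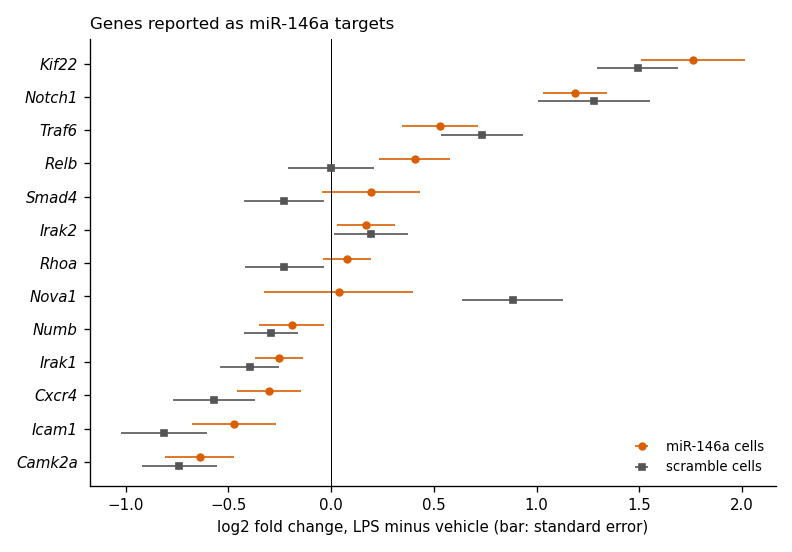
Log2 fold change under LPS with its standard error for the 13 genes of the reported miR-146a target list that were tested under both mimics, in miR-146a cells (orange circles) and in scramble cells (grey squares). In miR-146a cells Kif22 and Notch1 lie farthest above 0, Irak1 and Irak2 lie close to 0 and Camk2a lies farthest below 0.

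Many cytokine genes and most chemokine genes were too low to test. Of 25 cytokines 13 were tested and 12 had low counts, and of 23 chemokines 8 were tested, 14 had low counts and Ccl5 could not be read with certainty. Il6, Il10 and Cxcl10 were among those with low counts, so a change in them was not detectable at this depth. Il1rn, the interleukin-1 receptor antagonist, stood at 52, 63.2, 59 and 66.5 CPM under LPS and 8.7, 12.9, 17.9 and 25 CPM under vehicle (1.80, SE 0.22, adjusted p = 0.000709). Ebi3, a subunit of interleukin-27 and interleukin-35, stood at 18.5 to 21.5 CPM against 2.67 to 6.33 CPM (2.12, SE 0.28, adjusted p = 0.000826). Il1a rose by 1.46 (SE 0.32, adjusted p = 0.0186) and lost the call without vehicle replicate 3 or 4 (up to 0.0684). Il1b, the interleukin-1 beta precursor, stood at 12.8, 1.85, 12.4 and 1.71 CPM under LPS and 0.621, 0.627, 1.3 and 1.01 CPM under vehicle. LPS replicates 1 and 3 were high and replicates 2 and 4 lay close to vehicle, and the gene did not pass (2.53, SE 1.00, adjusted p = 0.2). Tnf overlapped between the groups, with 14, 8.6, 15.5 and 11.1 CPM against 6.84, 9.57, 12.2 and 19.9 CPM (-0.04, SE 0.30, adjusted p = 0.961). Of the chemokines, Ccl9 rose from 0.621 to 2.27 CPM to 6.25 to 10.1 CPM (2.14, SE 0.40, adjusted p = 0.00764).

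Among feedback inhibitors and transcription factors, Socs3, Sbno2 and Cebpb rose. Socs3, which blocks JAK kinases and cytokine receptors, stood at 37.6, 47.8, 44.5 and 33.5 CPM against 18, 13.7, 14.9 and 16.7 CPM (1.43, SE 0.18, adjusted p = 0.000819). Sbno2, a co-repressor downstream of interleukin-10, rose (1.00, SE 0.17, adjusted p = 0.0039). Of 22 tested feedback inhibitors 2 rose and 1 fell, against 2.86% and 1.6% of all genes, and the one that fell, Socs5, lost its call in each of the 8 fits without 1 library. Cebpb, a transcription factor of the inflammatory response, rose by 0.90 (SE 0.14, adjusted p = 0.0027). Myc (1.95, SE 0.41) and Egr2 (-0.98, SE 0.20) changed too and lost their calls without vehicle replicate 3, with adjusted p of 0.0914 and 0.0639. Of 21 tested immediate-early and AP-1 factors 2 rose and 1 fell, against the same shares. In prostanoid and leukotriene synthesis Ptgs1, cyclooxygenase-1, fell from 262, 236, 307 and 224 CPM to 115, 138, 118 and 85.8 CPM (-1.16, SE 0.16, adjusted p = 0.0011). Ltc4s, leukotriene C4 synthase, fell from 11.8, 19.3, 20.4 and 16.3 CPM to 4.01, 3.27, 5.98 and 5.12 CPM (-2.02, SE 0.27, adjusted p = 0.00105). Ptgs2, the inducible cyclooxygenase-2, stood at 20.8 to 45.8 CPM under LPS and 11.6 to 19.9 CPM under vehicle (1.07, SE 0.27, adjusted p = 0.0405) and lost its call in 6 of the 8 fits without 1 library. Cybb, the catalytic subunit of the phagocyte NADPH oxidase, rose by 0.70 (SE 0.14, adjusted p = 0.0108), as 1 of 8 tested subunits, and lost its call without vehicle replicate 3 (0.0527). The count of 1 was 2 in DESeq2, with the replicate block and without LPS replicate 4, and 3 in 1 fit of all 32 libraries and without vehicle replicate 4.

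Genes of mitosis rose together. Of 47 tested genes for the spindle, the kinetochore and cell division 38 rose and 0 fell, against 2.86% and 1.6% of all genes, with a median log2 fold change of 1.24. In 36 the LPS values lay entirely higher, against 6.19% of all genes. Plk1, polo-like kinase 1, stood at 53.2, 87.4, 44 and 46.9 CPM under LPS and 16.2, 15.8, 14.4 and 21.3 CPM under vehicle (1.75, SE 0.26, adjusted p = 0.00192). Kif20a, a kinesin of the central spindle, stood at 73.1, 76.8, 52 and 58.6 CPM against 20 to 35.4 CPM (1.48, SE 0.19, adjusted p = 0.000826). Cdc25c, the phosphatase that activates CDK1 (2.20, SE 0.39), Ndc80, a kinetochore protein (1.63, SE 0.31), and Kifc1, a minus-end motor (1.75, SE 0.32), rose as well, and Kifc1 lost its call without vehicle replicate 3 (adjusted p = 0.0579). Without that library 25 genes of the list were called in place of 38, and without the other libraries 30 to 38. Among genes of DNA replication and S phase the count depended on the fit: 1 of 48 tested genes was called, Rfc5, a clamp-loader subunit (0.83, SE 0.18), although 40 of the 48 had a fold change above 0 and the list median was 0.35. In edgeR's quasi-likelihood test 1 of the 48 was called, in DESeq2 3, in 1 fit of all 32 libraries 4 and with the replicate block 6. The letters CCAAT, searched on both strands as the core of the box bound by the factor NF-Y, stood in 33 of 42 mitosis promoters (78.6%), against 37.4% of all promoters of the same length and 43.6% of those of genes called higher.

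**Figure D4:**
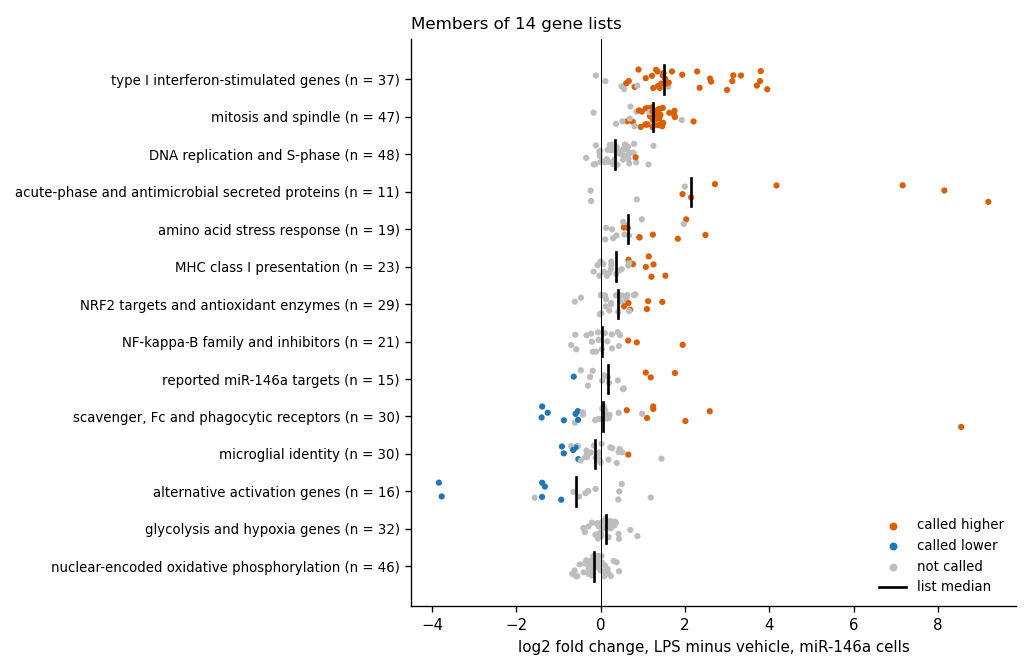
Log2 fold change under LPS (horizontal axis) of each tested member of 14 gene lists, 1 point per gene, orange where called higher, blue where called lower and grey where not called, with a black line at the list median. Orange points make up most of the interferon-stimulated list (31 of 37) and the mitosis list (38 of 47), and the alternative activation list has lower calls only (6 of 16).

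Stress-response genes rose in part. The amino acid response, in which the factor ATF4 turns on synthesis and import of amino acids, had 8 of 19 tested genes higher and 0 lower, and all 19 had a fold change above 0 (median 0.64). Atf4 itself stood at 199.8, 146.3, 213 and 216 CPM against 127, 76.5, 124 and 94.5 CPM (0.92, SE 0.18, adjusted p = 0.0119). Trib3, a pseudokinase induced by ATF4, stood at 19.9, 20.2, 16.3 and 21.3 CPM against 1.86, 3.29, 2.49 and 5.76 CPM (2.49, SE 0.33, adjusted p = 0.000826). Mthfd2, a mitochondrial enzyme of folate metabolism, rose by 2.03 (SE 0.23, adjusted p = 0.000431), and Atf5 by 1.24 (SE 0.20). Ddit3 (1.83, SE 0.37) and the asparagine synthetase Asns (0.92, SE 0.20) rose and lost their calls without vehicle replicate 2 (adjusted p = 0.0507) and without vehicle replicate 3 or 4 (up to 0.0869). Of 29 tested antioxidant genes and targets of the factor NRF2 6 rose and 0 fell, against 2.86% and 1.6% of all genes. DESeq2 called 11 higher, 1 fit of all 32 libraries 10, and the replicate block 7 higher and 1 lower. Fth1, the ferritin heavy chain that stores iron, was among the most abundant transcripts, at 7289, 5934, 4447 and 11110 CPM against 3121, 3116, 1758 and 2201 CPM (1.46, SE 0.26, adjusted p = 0.00564). Hmox1, the haem-degrading oxygenase, stood at 641, 720.0, 436 and 911 CPM against 312, 255, 269.7 and 386 CPM (1.12, SE 0.21, adjusted p = 0.0069). Prdx5 rose by 0.70 (SE 0.14). Gsr, G6pdx and Sqstm1 were called as well and each lost the call in 5 or 6 of the 8 fits without 1 library. The antioxidant count was 3 without vehicle replicate 2 and 4 without LPS replicate 1 or 3 or vehicle replicate 1, 3 or 4.

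Among genes that mark microglia and their state, Trem2, Tyrobp and Cst3 fell. Of 30 tested identity genes 5 fell and 1 rose, against 1.6% and 2.86% of all genes, with a median of -0.14, and DESeq2 and the replicate block each gave 8 lower. Trem2, a lipid-sensing receptor, stood at 148, 165, 179 and 134 CPM under LPS and 252, 263, 295 and 339.7 CPM under vehicle (-0.88, SE 0.14, adjusted p = 0.00261). Its adaptor Tyrobp gave -0.60 (SE 0.13, adjusted p = 0.0176) and lost the call without LPS replicate 2 or vehicle replicate 3 or 4 (up to 0.0571). Cst3, the protease inhibitor cystatin C, fell by 0.65 on the log2 scale (SE 0.13), from 795 to 854 CPM to 436 to 652 CPM. Gpr34 lost the call in 7 of the 8 fits without 1 library. Adgre1, the macrophage marker F4/80, was the member that rose, from 684, 641, 658 and 595 CPM to 1094, 1032, 1106 and 856 CPM (0.65, SE 0.12, adjusted p = 0.00888). Csf1r, the receptor on which microglia depend, did not overlap between the groups (477 to 773 against 885 to 996 CPM) and did not pass (-0.54, SE 0.15, adjusted p = 0.07). Cx3cr1 was too low to test. The count of 5 falling genes was 2 without LPS replicate 2 or vehicle replicate 3 or 4 and 3 without LPS replicate 3 or 4 or vehicle replicate 1.

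Further genes that fell include Apoe, Txnip and Man2b1. Apoe, the main lipid carrier of microglia, stood at 2287, 1822, 2114 and 1596 CPM under LPS and 3760, 3572, 3190 and 3839 CPM under vehicle (-0.90, SE 0.14, adjusted p = 0.00266). It was the 1 called gene of 19 for lipid efflux and storage, and DESeq2 called 2 of the 19. Of 30 tested genes of cholesterol and fatty acid synthesis 2 fell, Dhcr7 (-0.84, SE 0.20) and Fasn (-0.71, SE 0.16), and they lost their calls in 7 and 6 of the 8 fits without 1 library. In DESeq2 5 of the 30 fell and with the replicate block 8. Txnip, which binds thioredoxin and limits glucose uptake, fell from 1255, 1280, 1156 and 978 CPM to 257, 146.2, 266 and 56.6 CPM (-2.87, SE 0.37, adjusted p = 0.000819). LPS replicate 4 was the lowest of its group for Txnip, Ocstamp (3.98 CPM against 16.1 to 17.7 CPM in the other LPS libraries) and Agt (0.569 against 2.5 to 3.91 CPM). Ocstamp, a fusion protein of osteoclasts, fell by 2.80 on the log2 scale (SE 0.34, adjusted p = 0.000569), and Agt, angiotensinogen (-2.85, SE 0.48), and Ms4a4a, a tetraspan membrane protein (-2.51, SE 0.49), fell as well. Cxcr2, a chemokine receptor, fell too (-2.71, SE 0.63, adjusted p = 0.0283) and lost the call in 5 of the 8 fits without 1 library. Man2b1, a lysosomal mannosidase, fell from 687, 712, 638 and 727 CPM to 348, 328, 372 and 239 CPM (-1.12, SE 0.14, adjusted p = 0.000819), and Arsb, a lysosomal sulfatase, by 1.08 (SE 0.18). With Atp6v0d2, a proton pump subunit (-1.75, SE 0.39, groups overlapping), they were the 3 of 28 tested genes that fell in a list of phagocytic microRNA targets set up by the study, against 1.6% of all genes, and 6 fell in DESeq2 and 5 with the replicate block. Atp6v0d2 lost its call in 4 of the 8 fits without 1 library (adjusted p up to 0.0744). Of 22 tested genes of the study's pro-inflammatory list 6 rose and 0 fell, and of 36 of its homeostatic and disease-associated list 3 rose and 8 fell, against 2.86% and 1.6% of all genes. The count of 8 was 13 with the replicate block and 5 without LPS replicate 2 or vehicle replicate 3 or 4. The study drew the target list from its own sorted mouse microglia and the pro-inflammatory and disease-associated lists from outside data.

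Several lists besides MHC class II had 0 calls in limma-voom. Of 32 glycolysis and hypoxia genes (median 0.12) 5 had an unadjusted p under 0.05, and edgeR called 0 and DESeq2 1. Of 21 other Toll-like and interleukin-1 family receptors 6 had an unadjusted p under 0.05, and edgeR called 0 and DESeq2 3. Of 46 nuclear-encoded subunits of oxidative phosphorylation (median -0.16) 6 had an unadjusted p under 0.05, and of 18 genes of the microRNA machinery 0 did, and edgeR and DESeq2 called 0 in either list. The 11 tested protein genes of the mitochondrial genome also had 0 calls in limma-voom, although all 11 had a fold change below 0 (median -0.87). The mitochondrial share of the library totals given above overlapped between the groups, and its part in these values was not tested. Of the 11, 6 had an unadjusted p under 0.05, and DESeq2 called 2 and edgeR 0, while 8 were called lower with the replicate block. Among matrix and migration genes 2 of 13 fell, Timp2 (-0.48) and Cd44 (-0.45), with calls lost in 7 and 8 of the 8 fits without 1 library. Among 28 cell death and inflammasome genes Zbp1 was the 1 call, with 3 higher in edgeR, 5 in DESeq2 and 4 with the replicate block. The rule for naming genes also gave 5 sequences without an established role. Gm2274 was at 2.73 to 17.5 CPM under LPS and 0 counts under vehicle, at least 46.95-fold higher. AC102815.1 rose in the fit (5.99, adjusted p = 0.0191), but its vehicle replicate 1 (13.9 CPM) lay within the LPS range of 7 to 26.1 CPM. Gm5350 (-3.77), Gm6061 (-3.07) and Gm37938 (-2.55) fell, and the least certain readings of Gm5350 and Gm6061 had posteriors of 0.918 and 0.949. Gm6061 and Gm37938 each lost the call in 6 of the 8 fits without 1 library, and AC102815.1 lost it without vehicle replicate 2, 3 or 4.

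In scramble cells the same contrast called a larger share of genes, 2180 of 12448 (17.5%), with 1165 higher (9.36%) and 1015 lower (8.15%). The 2 contrasts share no library. Among 11893 genes tested in both, 290 of 346 genes called higher in miR-146a cells were called higher in scramble cells (83.8%), which is 25.9% of the 1120 higher calls there. Of 192 genes called lower 76.04% were called lower in scramble cells too, which is 15.1% of the 969 lower calls there. The sign of the fold change was opposite in scramble cells for 3 of the genes called higher and 4 of those called lower. Fold changes of the main genes in the 2 contrasts can be set side by side. Saa3 gave 8.16 in miR-146a cells and 8.58 in scramble cells, Irg1 4.29 and 5.03, Irf7 3.95 and 3.86 and F13a1 -3.77 and -4.82. The interferon list had 31 of 37 genes called in miR-146a cells and 37 of 39 in scramble cells, mitosis 38 and 45 of 47, and DNA replication 1 and 29 of 48. A count of calls that differs between the mimics does not show a different response, and the difference itself was tested for each gene.

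**Figure D5:**
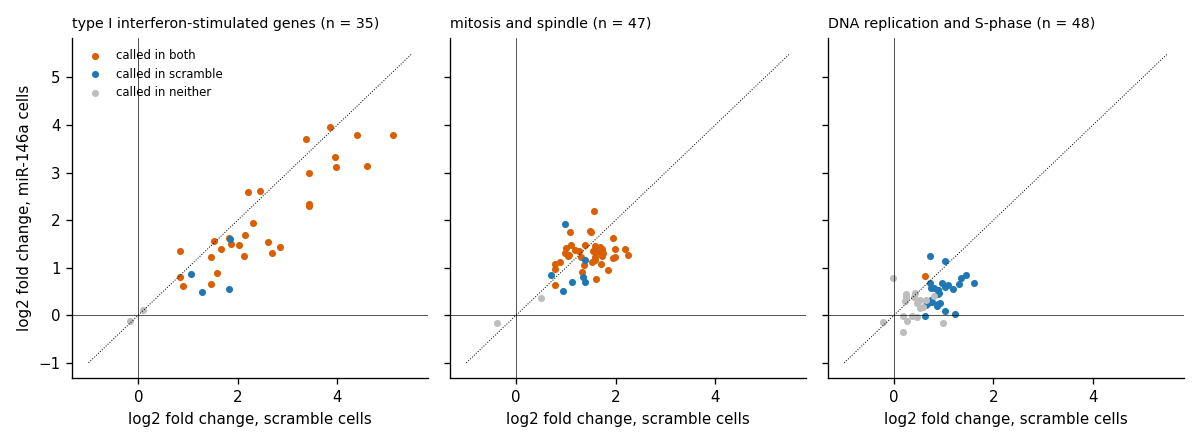
Log2 fold change under LPS in scramble cells (horizontal axis) and in miR-146a cells (vertical axis) for the members of 3 gene lists tested in both, 1 point per gene, coloured by where the gene was called, with a dotted line of equal values. Of the genes drawn, 29 of 35 interferon-stimulated genes, 38 of 47 mitosis genes and 1 of 48 DNA replication genes were called in both.

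That test, an interaction of LPS and mimic over 16 libraries and 12641 genes, gave 1 call (0.00791%), and 1389 genes (11.0%) had an unadjusted p under 0.05. edgeR also gave 1 call and DESeq2 28. The single call, the glutamine synthetase pseudogene Glns-ps1, is uncertain: its vehicle scramble values were deposited as 209, 218, 1499 and 517 and read as 209, 218, 149.9 and 517 counts, and with 2 or 3 lost decimals they would lie at 2.09, 2.18, 1.499 and 5.17 counts, within the 0 to 8.311 counts of the other 12 libraries. Of 541 genes called for LPS in miR-146a cells and tested for the difference, 98 had an unadjusted p under 0.05. Within lists, 10 of 36 interferon genes, 7 of 47 mitosis genes and 7 of 48 replication genes had an unadjusted p under 0.05 and 0 were called, with median differences of -0.41, -0.23 and -0.42. The genes next in order by p also failed the adjustment. Trim12c, of an antiviral tripartite-motif family, stood at 15.2, 16.7, 19.5 and 13.9 CPM under LPS and 8.97, 9.99, 10.6 and 9.34 CPM under vehicle in miR-146a cells and did not pass (0.72, SE 0.21, adjusted p = 0.0721). In scramble cells it stood at 27.6, 22.3, 27.5 and 23.5 CPM under LPS and 5.93, 2.72, 6.49 and 5.43 CPM under vehicle, and the difference of the effects was -1.51 (SE 0.30, adjusted p = 0.35). Fcgr2b fell in miR-146a cells, from 234, 243, 232 and 239 CPM to 159.7, 171, 166 and 162 CPM, whereas in scramble cells it stood at 152, 164, 158 and 169.6 CPM under LPS and 146.5, 150.4, 138 and 149 CPM under vehicle. The difference was -0.67 (SE 0.14), again short of the threshold. Ankrd32, which acts in the repair of DNA damage, and Rad50, of the MRE11 complex that binds broken DNA ends, gave differences of -1.003 (SE 0.21) and -1.05, with fold changes in scramble cells of 0.74 and 1.12 and values in miR-146a cells that were not called (-0.27 and 0.06).

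For 41 of the 125 named genes that were tested, the annotation holds a gene on the opposite strand at the same place, such as Gm15441 for Txnip, Phrf1 for Irf7 and Psmb9 for Tap1. The sources used here do not state whether the counting used strand, so reads of such a pair may not be told apart.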

How the data were processed

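Per the labels and the study's methods, the authors removed ribosomal RNA (RiboCop), prepared CORALL libraries from total RNA and obtained gene counts on GRCm38 from the nf-core rnaseq workflow. The authors deposited 1 table of estimated counts for 45706 genes and 32 libraries, and their notes name limma and edgeR (versions for these libraries not given in the sources used here). No library pair held identical values (0 pairs).

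The deposited estimated counts had lost their decimal marks: of 109458 values of 20000 or more, 0.0155% ended in 0. The mark was put back for each value by a model that weighs 0 to 3 lost decimals. It uses the last digits and how high the gene is in the other libraries. Libraries of the same group count most, then those of the same treatment, so the compared groups helped to place the marks. What this does to the calls and to the overlap of groups was not tested. In the 8 libraries 27.2% of values above 0 were given lost decimals. Readings with a posterior below 0.9 counted as uncertain (0.852%), and 368 genes with such a value that reached the count filter were left out. The model was revised after a first pass of the tests, because levels of a few abundant genes came out implausible. It was tested on simulated data, as were the fits. In the simulated data some genes were given modest changes in the LPS libraries with the mimic, and no other gene differed between groups. The simulation therefore does not cover changes as large as those of Saa3 or Lcn2.

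Libraries were grouped by their labels. Counts were filtered with filterByExpr, scaled by TMM and fitted with limma-voom without replicate number (R 4.3.3, limma 3.58.1, edgeR 4.0.16). The 8 libraries gave the LPS contrast and 16 libraries the interaction with mimic. Genes were called at a Benjamini-Hochberg adjusted p under 0.05 with a log2 fold change of more than 0.3 in size. Tests of many genes use two-sided moderated statistics, and intervals and floors (3 counts) cover counting error only. Levels are CPM computed from the estimated counts after the decimal marks were restored, and totals of 1686457 to 10018653 counts limit low genes. Alternatives were other restorations, filters, scalings, DESeq2 1.42.0, edgeR's quasi-likelihood test, limma-trend, a replicate block, all 32 libraries together and each library left out.

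The members and the 36 gene lists were chosen with earlier results of these data known. Genes were named by rule: the 10 highest and the 10 lowest fold changes among called genes with the same sign in 4 of 4 same-numbered pairs and at least 5 CPM in a group, up to 6 called genes per list, 24 genes of the TLR4 response, the 5 smallest p of the interaction and called genes of lists with at most 5 calls.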

Additional observations from a re-analysis of the deposited data

Results flagged for a closer look

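Among 258 groups of 4 values of the named genes, 17 held a library that stood apart from the other 3 beyond Dixon's 95% critical value, and chance gives about 5% of such groups. Among the LPS libraries, replicate 2 was highest for Gbp6 (23.5 CPM), for Dhcr7 (28.9 CPM) and for Irak1 (88.4 CPM). LPS replicate 3 was highest for Ly6a (33.96 CPM), and LPS replicate 4 was lowest for Ocstamp (3.98 CPM) and highest for Zbp1 (3.41 CPM). Among the vehicle libraries, replicate 2 was highest for Cfb (2.98 CPM), Ptgs2 (19.9 CPM), Dhcr7 (43.9 CPM) and Marco (0.157 CPM, 1 count) and lowest for Bcl3 (1.25 CPM) and Ddit3 (7.06 CPM). Vehicle replicate 1 was highest for AC102815.1 (13.9 CPM), Cebpb (82.7 CPM) and Ankrd32 (29.83 CPM) and lowest for Tap1 (59.0 CPM), and vehicle replicate 4 was highest for Tnip1 (82.9 CPM).

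The effect of LPS differed between miR-146a and scramble cells by the interaction test for Glns-ps1 (7.34 on the log2 scale), which rests on the uncertain reading described in the report. For Fcgr2b (-0.67) and Ankrd32 (-1.003) the LPS and vehicle libraries of each mimic did not overlap and lay in opposite order, and the interaction test of both missed the adjusted threshold.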

How the results depend on the processing

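The 546 calls depended most on the lost decimal marks: with the values as deposited 36 genes passed, and the log2 fold changes of Txnip (1.79), Tnip1 (-0.92), Ass1 (-0.91), C3 (-0.29), H2-Q6 (-0.50), Sbno2 (-0.83), G6pdx (-0.90), Sqstm1 (-7.38), Dhcr7 (0.88), Ddx58 (-2.925), Cdc25c (-0.41) and Fcgr2b (1.497) changed sign. DESeq2 called 833 genes (532 of the 546 among them), edgeR's quasi-likelihood test 472 (451), limma-trend 472 (455), and 1 fit of all 32 libraries 894 (505). The cause of these differences was not tested. Other restorations, filters and scalings gave 539 to 551 calls. With no filter on low counts the median log2 fold change of all genes shifted by -0.13, and 449 of the 546 genes remained. Leaving out 1 library gave 275 to 501 calls, 275 without vehicle replicate 3 and 345 without vehicle replicate 2. Of 114 named genes called, 72 kept the call in each of the 8 fits without 1 library and 42 lost it in at least 1, 33 of them without vehicle replicate 3. Of 125 named genes tested, 114 kept direction and side of the threshold under edgeR, 119 under DESeq2, 118 under limma-trend and 117 with no filter on low counts.

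Equal replicate numbers in the labels were not taken as pairs in the main fits, although the rule for naming genes used same-numbered libraries. Same-numbered LPS and vehicle libraries correlated in their deviations from the group means by 0.23, 0.06, 0.33 and 0.08 over 12241 genes, not all above 0.1. Every LPS library did correlate best with the vehicle library of its own number (mean 0.17, against -0.06 for other numbers). The sample numbers in the labels keep the libraries of each replicate together, and the study calls its replicates independent experiments. Neither source states that equal numbers are pairs, and the main fit left this possible pairing out. In scramble cells the same correlations were 0.26, 0.19, 0.20 and 0.28, all above 0.1, although scramble LPS replicate 3 correlated more with a vehicle library of another number (0.22). There the replicate block, added after seeing the data, called 3043 genes in place of 2180, with 2049 called in both fits. The interferon and replication lists had 37 and 29 calls in either fit and mitosis 45 and 46. Between the mimics the correlations were 0.21, 0.46, 0.33 and 0.09 under LPS and 0.32, 0.06, 0.10 and 0.21 under vehicle. With the replicate block 838 genes were called, 498 of the 546 among them, and 8 of 11 mitochondrially encoded genes were called lower. The interaction had 2 calls with the block.

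The interaction, with 1 call, gave 13 calls on the values as deposited, 28 in DESeq2 and 0 with a posterior minimum of 0.99, with no minimum, with DESeq2 size factors, with upper-quartile scaling and in 1 fit of all 32 libraries. Without 1 library it gave 0 to 47 calls, 47 without vehicle scramble replicate 1. Counts of interferon, mitosis and other list members without LPS replicate 4 or vehicle replicate 1, 2 or 3, libraries chosen after seeing the data, stand in the report beside the lists described there at length.

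Depth limits low genes: 3 counts were worth 1.78 CPM in vehicle replicate 1. The count filter left out 12 of 25 cytokine and 14 of 23 chemokine genes. Without vehicle replicate 1 the numbers tested stayed at 13 cytokines and 8 chemokines.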

Other observations

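Called genes outside the lists add further groups; they were picked after their values were seen, and no test beyond the fit of all genes was made. Among immune surface and secreted proteins, Slamf7, a self-ligand receptor of leukocytes, rose by 3.49 on the log2 scale, Lgals9, the glycan-binding protein galectin-9, by 1.70 and Cd38, an enzyme that consumes NAD, by 1.68, from 39.2 to 47.5 CPM to 135 to 181 CPM. Mpeg1, a pore-forming protein of the phagosome, rose by 1.00 and the giant ubiquitin ligase Rnf213 by 1.23. Ero1l, the oxidase that forms disulphide bonds in the endoplasmic reticulum, rose by 1.31. Of 20 tested genes for cytosolic tRNA synthetases, counted after some of their values were seen, 5 were called higher and 0 lower, against 2.86% and 1.6% of all genes: Aars at 1.06, Cars at 0.80, Nars at 0.62, Tars at 0.57 and Yars at 0.49. The mitochondrial enzyme Pck2 gave 1.34.

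Among genes that fell, the calcium-binding protein S100a4 gave -1.68, the chemokine Pf4 -1.27, von Willebrand factor Vwf -1.55, the surface protein Cd83 -1.32 and the p53 target Sesn1 -1.22. The small RNAs Snord17 (-1.71), Scarna6 (-1.40) and Scarna10 (-1.27) were among the structural RNA genes that fell, each with LPS and vehicle values that overlapped.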
